A study of Mus musculus with 8 samples.

Results

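Vascular tone is set by receptors on the mural cells of blood vessels and by the enzymes that make cyclic GMP. The genes described here are 9 of the 37979 genes listed in the expression table, found by their symbols: the endothelin receptors Ednra and Ednrb, the angiotensin II receptor Agtr1a, the adrenergic receptors Adra1b, Adra1d and Adra2a, the natriuretic peptide receptor Npr1, and the soluble guanylate cyclase subunits Gucy1a3 and Gucy1b3. Endothelin, angiotensin II and noradrenaline act through G protein-coupled receptors, most of which raise calcium in smooth muscle cells (SMCs) and contract the vessel. Nitric oxide and the natriuretic peptides act in the opposite direction, by making cyclic GMP through soluble guanylate cyclase and the membrane receptor Npr1, and relax it. Pericytes, the mural cells of capillaries, carry several of the same receptors.

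The libraries hold RNA of whole sorted populations, pericytes or SMCs, taken from the hindlimb muscles of Ai14+/-;SM22α-Cre+ mice. Mice of both sexes were 3 to 4 months old, and 18 mice were used in the study. Both groups came from mice with the same alleles: Cre recombinase under the SM22α promoter permanently switches on tdTomato in the cells that have used this promoter and in their progeny, so the tdTomato sort separates cells by their history of SM22α promoter activity, and a PDGFRβ+ pericyte that had once used it would be sorted as an SMC. By the sorting protocol pericytes were DAPI-low, negative for CD31 and CD45, PDGFRβ+ and tdTomato-, and SMCs were gated in the same way but were tdTomato+. The study's descriptions of the gate differ on CD31, since another of them writes both sorted populations as CD31+. There were 4 libraries of each, numbered 1 to 4, each from about 60000 cells pooled over several sorts. All carry the same batch label, but the study names batch effects from combining sorts as a possible source of variation between replicates. RNA was amplified with an ultra-low-input kit before sequencing.

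The values are FPKM, fragments scaled to the length of the transcript and to the mapped reads of the library, so levels can be compared between genes per length. The low FPKM values of 5444 long genes with a single transcript fell on steps of whole fragments (within 0.15 of a whole number for 98.1% to 98.5% of the values), which gave an estimated depth of 21400000 to 26400000 fragments per library. The cell type labels were checked against marker lists. All 8 leukocyte markers tested were higher in pericytes, with a summed level of 6223 to 10763 FPKM in pericyte libraries against 428 to 558 in SMC libraries, although the gate left CD45+ cells out. Of 10 endothelial markers, 8 were higher in SMCs (589 to 1593 FPKM summed, against 125 to 223 in pericytes), although the sorting protocol leaves CD31+ cells out. Of 10 fibroblast markers, 9 were higher in SMCs (4709 to 6926 FPKM summed, against 946 to 1883), and Dcn alone was higher in pericytes and listed at 0 in all 4 SMC libraries. The pericyte and smooth muscle marker lists separated the groups less. Over all genes tested, 11.2% were higher in SMCs and 10.6% in pericytes by limma. Of 10 pericyte markers 2 were higher in SMCs (155 to 512 FPKM summed, against 57.6 to 145 in pericytes) and 0 in pericytes, and 0 of 10 smooth muscle markers passed the test in either direction by limma (1796 to 5841 FPKM summed in SMCs, against 610 to 1915 in pericytes), while 3 had an unadjusted p below 0.05, all with higher values in SMCs. The genes behind the sort overlapped between the groups. Pdgfrb was at 3.21 to 17.6 FPKM in pericytes and 15.6 to 91.5 FPKM in SMCs (limma q = 0.0973). Tagln, which encodes SM22α, was at 165 to 551 FPKM in pericytes and 500 to 1569 FPKM in SMCs (limma q = 0.11). None of the pericyte, smooth muscle, endothelial or leukocyte markers was at 0 throughout a group. T cell and B cell markers followed the leukocyte list (6 of 7 and 5 of 5 higher in pericytes), and 4 of 7 macrophage markers were higher in SMCs. The part of these other cells in the results below was not tested.

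The first question was whether the receptors and the cyclase differ between the sorted pericytes and SMCs. The 9 genes were higher on average in SMCs, and 5 of them passed the test: both endothelin receptors, Agtr1a, Npr1 and Gucy1b3. In each of these 5 the lowest SMC library exceeded the highest pericyte library, as it did for 12.5% of all genes tested. None of the 9 passed in the other direction by limma, nor had an unadjusted p below 0.05 there. Across all 27414 genes tested, 21.8% passed at a q value below 0.05, 11.2% with the higher level in SMCs and 10.6% with the higher level in pericytes. The split depends on the scaling: it was 3060 against 2917 genes as deposited and 3734 against 2117 with each library rescaled to a common sum (TPM), and the FPKM of pericyte replicate 2 summed to about 1190440, against 656405 to 782014 in the other libraries. With a log2 fold change above 2 as well, 4 of the 9 (Ednra, Ednrb, Agtr1a and Npr1) were called, against 2.66% of all genes tested (728 genes, or 1421 with a pseudocount of 0.1), and 0 were called in the pericyte direction, against 3.24%. That count of 4 was 2 without pericyte replicate 2 (Agtr1a and Npr1) and 2 without SMC replicate 3 or SMC replicate 4 (Ednra and Agtr1a). The median log2 fold change of the 9 genes, SMCs over pericytes, was 1.62, beside -0.02 over all genes tested. Tests used limma on log2(FPKM + 1) with Benjamini-Hochberg adjustment over all genes tested (q value), a scale on which the change of genes with low FPKM is understated. In such bulk samples fewer cells of a type and less RNA per cell cannot be told apart.

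**Figure D1:**
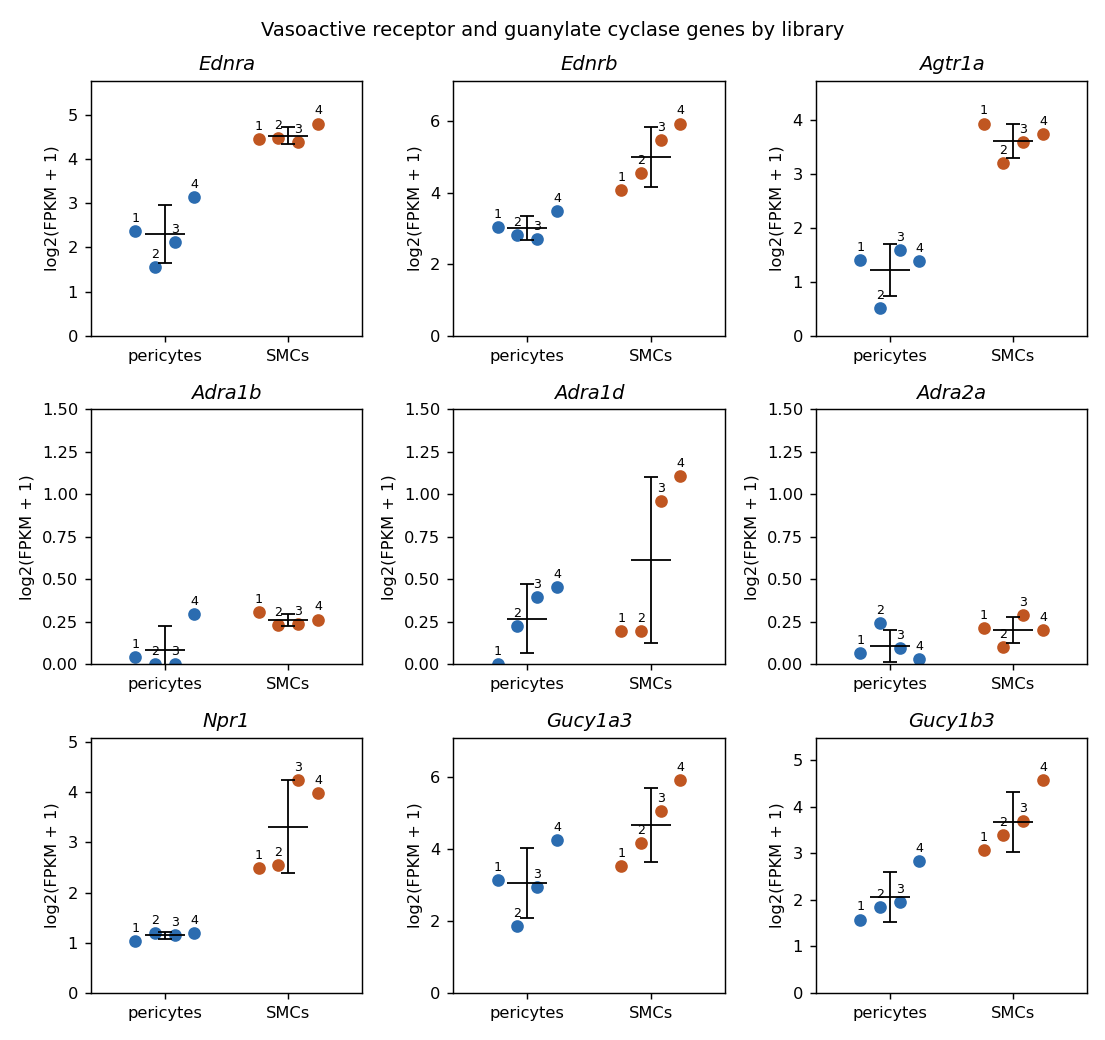
Level of each of the 9 genes in each library, as log2(FPKM + 1), in pericytes (blue) and SMCs (orange), with replicate numbers beside the points and the mean and SD (n = 4) as bars. Ednra, Ednrb, Agtr1a, Npr1 and Gucy1b3 have every SMC library above every pericyte library, and the 3 adrenergic receptors lie near the bottom of the scale in both groups.

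**Figure D2:**
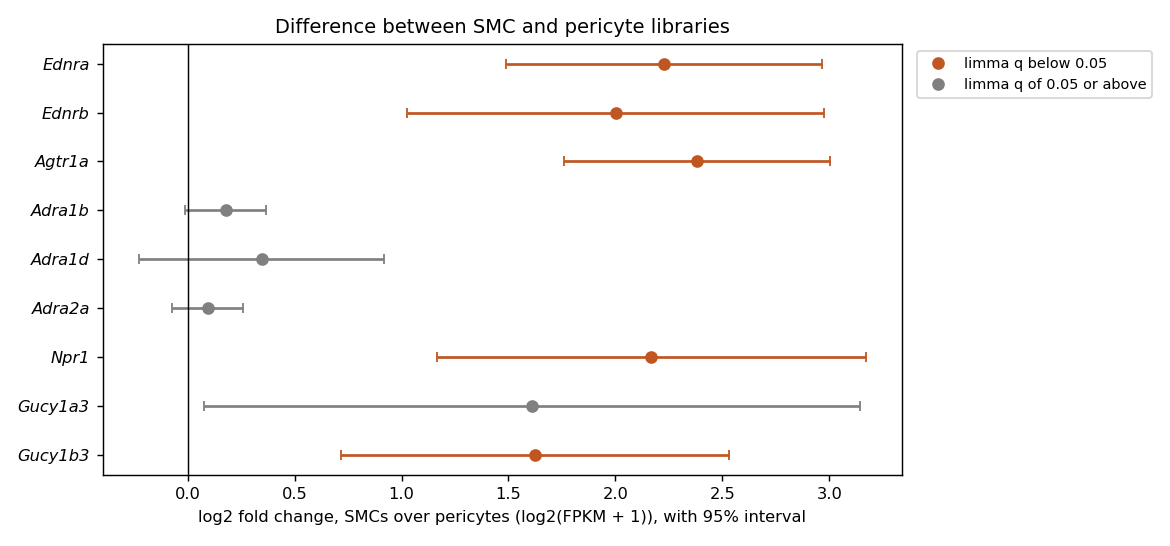
Log2 fold change, SMCs over pericytes, of each of the 9 genes with its 95% interval, in orange where the limma q value is below 0.05. Agtr1a is the farthest to the right at 2.38, the 3 adrenergic receptors have intervals that span 0, and Gucy1a3 has the widest interval.

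Ednra encodes the endothelin receptor that mediates contraction of vascular smooth muscle by endothelin-1. It lies at chr8:80186930-80248363 on the minus strand (NCBI Build 37) and its longest annotated transcript has 8 exons. Pericyte replicates 1 to 4 had 4.18, 1.95, 3.34 and 7.85 FPKM, and SMC replicates 1 to 4 had 20.7, 21.3, 19.99 and 26.9 FPKM. All 4 SMC libraries exceeded all 4 pericyte libraries, and the SMC libraries lay close together. The mean was 4.33 ± 2.52 FPKM in pericytes and 22.2 ± 3.15 FPKM in SMCs (SD, n = 4 each), a ratio of 5.13. The log2 fold change was 2.23 (SE 0.31, limma q = 0.00242). A gene on the opposite strand, 4933431K23Rik, shares 91 of the 5476 exonic bases of Ednra (1.66%) and was itself at 0.355 to 0.8286 FPKM in pericytes and 0.236 to 0.435 FPKM in SMCs. Whether reads were counted by strand is not given in the sources used here, so reads from the shared bases cannot be told apart.

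Ednrb, the second endothelin receptor, also clears endothelin and on endothelial cells couples to nitric oxide release. It lies at chr14:104213842-104243390 on the minus strand. Its levels were 7.27, 6.12, 5.49 and 10.2 FPKM in pericyte replicates 1 to 4 and 16.1, 22.6, 43.3 and 60.4 FPKM in SMC replicates 1 to 4. The groups did not overlap, and SMC replicates 3 and 4 were well above SMC replicates 1 and 2. The mean was 7.26 ± 2.08 FPKM in pericytes and 35.6 ± 20.2 FPKM in SMCs (SD, n = 4 each). The ratio of means was 4.90 and the log2 fold change 2.00 (SE 0.42, limma q = 0.013). That fold change sits at the edge of the additional limit of 2. Endothelial cells also express Ednrb, and the endothelial marker list moved the same way: its median log2(FPKM + 1) was 3.19, 3.59, 2.85 and 3.86 in pericyte replicates 1 to 4 and 5.32, 5.63, 6.85 and 7.06 in SMC replicates 1 to 4. The part of endothelial RNA in the Ednrb levels was not tested.

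Both endothelin receptors were compared within each library. The FPKM ratio of Ednra to Ednrb was 0.575, 0.319, 0.609 and 0.771 in pericyte replicates 1 to 4, so Ednrb exceeded Ednra in each. It was 1.29, 0.942, 0.462 and 0.445 in SMC replicates 1 to 4, so Ednra exceeded Ednrb in SMC replicate 1 alone. The mean of log2((FPKM + 1)/(FPKM + 1)) was -0.72 ± 0.40 in pericytes and -0.49 ± 0.74 in SMCs (SD, n = 4 each). The difference of 0.23 was within the spread between libraries (p = 0.6 by a two-sided exact permutation test, or 0.8 adjusted over 4 ratios), and without SMC replicate 1 it was -0.05.

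The sequences upstream of the start sites of the endothelin receptors are shown because both genes were called higher in SMCs. They are taken from the RefSeq promoter table (assembly GRCm38.p6), were placed on NCBI Build 37 by exact match, and are printed 5′ to 3′ on the strand of the gene, up to 250 bases before a start site and without bases in annotated exons of the gene. Ednra covers chr8:80248364-80248601, minus strand. Ednrb covers chr14:104242919-104243168, minus strand, which lies inside the annotated span of the gene, between exons. Capitals would mark matches on either strand to the TATA box TATAAA, the GC box GGGCGG, the RBPJ core TGGGAA (the DNA letters bound by the Notch effector RBPJ) and the serum response factor's CArG box. Neither stretch has a match, which says only that these letters are not in these windows.
Ednra: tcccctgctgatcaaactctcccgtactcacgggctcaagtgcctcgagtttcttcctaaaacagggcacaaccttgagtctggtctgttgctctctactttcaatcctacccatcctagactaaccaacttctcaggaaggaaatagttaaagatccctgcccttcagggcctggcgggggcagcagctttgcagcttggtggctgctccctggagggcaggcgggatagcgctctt
Ednrb: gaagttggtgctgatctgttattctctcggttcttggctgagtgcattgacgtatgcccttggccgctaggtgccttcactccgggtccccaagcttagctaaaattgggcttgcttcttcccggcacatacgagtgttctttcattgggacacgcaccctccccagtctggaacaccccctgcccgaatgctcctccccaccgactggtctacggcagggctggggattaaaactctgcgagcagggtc

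Around the receptors, the genes for endothelin ligands and converting or degrading enzymes were 6 in number, of which 2 were higher in SMCs and 0 in pericytes by limma (11.2% and 10.6% over all genes tested), with a median log2 fold change of 1.58. No gene of this list had an unadjusted p below 0.05 in the pericyte direction. Edn1, which encodes endothelin-1, had 2.75, 2.65, 1.52 and 0.786 FPKM in pericyte replicates 1 to 4 and 11.9, 14.8, 30.2 and 13.5 FPKM in SMC replicates 1 to 4 (log2 fold change 2.64, SE 0.35, limma q = 0.00185). It is made mainly by endothelial cells, whose markers were higher in the same libraries. Mme, which encodes neprilysin, an enzyme that degrades endothelin and natriuretic peptides, rose from 0.954 ± 0.706 FPKM in pericytes to 9.45 ± 1.19 FPKM in SMCs (SD, n = 4 each; log2 fold change 2.49, limma q = 0.000848). The most abundant gene of the list was Ece1, the endothelin-converting enzyme. Its level ranged from 6.10 to 216 FPKM in pericytes and from 92.3 to 622 FPKM in SMCs, and its difference did not pass (limma q = 0.186).

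Agtr1a encodes the main rodent receptor through which angiotensin II contracts vessels. It lies at chr13:30428310-30474736 on the plus strand. Its levels were 1.64, 0.428, 2.01 and 1.61 FPKM in pericyte replicates 1 to 4 and 14.2, 8.12, 11.0 and 12.2 FPKM in SMC replicates 1 to 4. The groups did not overlap, and the SMC libraries did not fall into separate sets as they did for Ednrb. The mean was 1.42 ± 0.687 FPKM in pericytes and 11.4 ± 2.55 FPKM in SMCs (SD, n = 4 each), a ratio of 8.003. The log2 fold change of 2.38 (SE 0.26, limma q = 0.000831) was the largest of the 9 genes in the fit as reported. Agtr1b, a close copy of Agtr1a whose reads may be hard to assign, was at 0.0677 FPKM on average in pericytes and 0.380 FPKM in SMCs. The fibroblast marker list was also higher in SMCs. Its median log2(FPKM + 1) was 6.74, 5.68, 5.24 and 5.86 in pericyte replicates 1 to 4 and 8.66, 8.46, 7.91 and 8.14 in SMC replicates 1 to 4. The part of fibroblast RNA in the Agtr1a levels was not tested.

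The other renin-angiotensin genes were largely on the same side. Of 10 genes, 6 were higher in SMCs and 0 in pericytes by limma (11.2% and 10.6% over all genes tested), with a median log2 fold change of 0.75, and 1 had an unadjusted p below 0.05 in the pericyte direction. That gene was the aminopeptidase gene Lnpep, with 6.73 FPKM in pericytes and 3.52 FPKM in SMCs (limma q = 0.116), and leaving out pericyte replicate 2 brought 1 gene of the list past the threshold in that direction. Agt, which encodes the precursor angiotensinogen, was 0.903 ± 0.348 FPKM in pericytes and 8.26 ± 3.79 FPKM in SMCs (SD, n = 4 each; log2 fold change 2.19, limma q = 0.00322). Ace, the converting enzyme that makes angiotensin II, was at 1.68, 1.31, 3.59 and 6.58 FPKM in pericyte replicates 1 to 4 and at 7.96, 9.12, 38.9 and 53.0 FPKM in SMC replicates 1 to 4 (log2 fold change 2.46, limma q = 0.0457). Enpep, which encodes aminopeptidase A, an enzyme that breaks down angiotensin II, and is often used to mark mural cells, also rose in SMCs, from 2.85 to 11.5 FPKM (log2 fold change 1.68, limma q = 0.000405).

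Adra1b and Adra1d encode α1 receptors, through which noradrenaline contracts arteries, and Adra2a encodes an α2 receptor best known on sympathetic nerve endings. They lie at chr11:43588108-43714712, chr2:131371586-131388021 (both on the minus strand) and chr19:54119672-54123472 (plus strand). All 3 genes were barely measured. Adra1b had 0.0296, 0, 0 and 0.226 FPKM in pericyte replicates 1 to 4 and 0.239, 0.173, 0.181 and 0.201 FPKM in SMC replicates 1 to 4. Adra1d had 0, 0.169, 0.315 and 0.373 FPKM in pericytes and 0.147, 0.146, 0.944 and 1.15 FPKM in SMCs. Adra2a had 0.0466, 0.182, 0.0673 and 0.0215 FPKM in pericytes and 0.159, 0.0744, 0.223 and 0.149 FPKM in SMCs. The groups overlapped for each gene. Adra2a has a single annotated transcript of 1 exon, so its values could be turned into estimated fragments: 4, 14, 6 and 2 in pericyte replicates 1 to 4 and 14, 7, 20 and 14 in SMC replicates 1 to 4.

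None of these differences passed. The log2 fold change was 0.18 for Adra1b (95% interval -0.01 to 0.36, limma q = 0.182), 0.35 for Adra1d (interval -0.23 to 0.92, limma q = 0.418) and 0.09 for Adra2a (interval -0.07 to 0.26, limma q = 0.453). The Adra1b value rests on pericyte replicate 4: without it the log2 fold change was 0.25 and the limma q value 0.0221. These small values depend on the pseudocount of 1. With a pseudocount of 0.1 and all libraries, the log2 fold changes were 1.05 for Adra1b, 0.98 for Adra1d and 0.53 for Adra2a (limma q = 0.0972, 0.416 and 0.326). For Adra1d, 147 of 1901 exonic bases (7.73%) are shared with Gm14285 on the opposite strand, which was listed at 0 in all pericyte libraries and at 0 to 0.598 FPKM in SMC libraries. The log2 ratio of Adra1b to Adra1d differed by -0.17 between SMCs and pericytes (two-sided exact permutation test, p = 0.514), within the spread between libraries, and turned to 0.08 with a pseudocount of 0.1.

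Of the 6 adrenergic receptor genes other than Adra1b, Adra1d and Adra2a, 0 passed in either direction by limma. The background shares of passing genes were 11.2% in the SMC direction and 10.6% in the pericyte direction. With only 6 genes, a count of 0 does not set this list apart from that background. An unadjusted p below 0.05 was found for 2 of the 6, with the higher level in SMCs. The median log2 fold change of these 6 genes was 0.17. A pseudocount of 0.1, TPM scaling, quantile scaling and an intensity trend each brought 1 of them past the threshold, higher in SMCs.

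Npr1 encodes the receptor guanylate cyclase of atrial and brain natriuretic peptide, which makes cyclic GMP at the cell membrane. It lies at chr3:90254513-90269788 on the minus strand, with 22 exons in its longest transcript. Its levels were 1.05, 1.29, 1.24 and 1.28 FPKM in pericyte replicates 1 to 4, a 1.23-fold range and the narrowest of the 9 genes among pericyte libraries. They were 4.59, 4.85, 17.8 and 14.9 FPKM in SMC replicates 1 to 4. The groups did not overlap, and as for Ednrb the SMC libraries fell apart, with replicates 3 and 4 above replicates 1 and 2. The mean was 1.22 ± 0.111 FPKM in pericytes and 10.6 ± 6.84 FPKM in SMCs (SD, n = 4 each), a ratio of 8.68. The log2 fold change was 2.17 (SE 0.43, limma q = 0.0103). A gene on the opposite strand, Gm16048, shares 559 of the 4783 exonic bases of Npr1 (11.7%), and was at 0 to 0.197 FPKM in pericytes and at 0 in all SMC libraries.

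Of the 6 other genes of natriuretic peptides, their processing and their receptors, 2 were higher in SMCs and 0 in pericytes by limma (11.2% and 10.6% over all genes tested), with no unadjusted p below 0.05 in the pericyte direction and a median log2 fold change of 0.40. Both were receptors. Npr2, the guanylate cyclase receptor of C-type natriuretic peptide, was at 2.09 ± 0.985 FPKM in pericytes and 6.49 ± 1.93 FPKM in SMCs (SD, n = 4 each; log2 fold change 1.31, limma q = 0.0264). The clearance receptor gene Npr3 was low in both groups, at 0.278 and 0.735 FPKM (log2 fold change 0.44, limma q = 0.0124). The count fell to 1 without pericyte replicate 1 or 4, or without SMC replicate 1, 2 or 3. Nppc, the gene of C-type natriuretic peptide and the most abundant of the list, varied from 4.62 to 148 FPKM among pericyte libraries and from 27.3 to 160 FPKM among SMC libraries, and did not differ beyond that spread (limma q = 0.668).

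Gucy1a3 and Gucy1b3 encode the α and β subunits that pair to form soluble guanylate cyclase, the receptor of nitric oxide. The genes are neighbours on the minus strand, Gucy1b3 at chr3:81835926-81878633 with 14 exons and Gucy1a3 at chr3:81896350-81949799 with 9 exons, and 17716 bases lie between them. Gucy1b3 had 1.98, 2.62, 2.89 and 6.13 FPKM in pericyte replicates 1 to 4 and 7.38, 9.56, 11.9 and 22.7 FPKM in SMC replicates 1 to 4. The groups did not overlap, with replicate 4 the highest in both. The mean was 3.41 ± 1.85 FPKM in pericytes and 12.9 ± 6.80 FPKM in SMCs (SD, n = 4 each), a ratio of 3.78. The log2 fold change was 1.62 (SE 0.39, limma q = 0.0222), and these values rest on an estimated 144 to 480 fragments per pericyte library and 549 to 1799 per SMC library. Its call held under 12 of 17 alternatives of the fit, the fewest of the 5. The limma q value was 0.0723, 0.0564 and 0.0641 without pericyte replicate 1, 2 and 3, and 0.0597 without SMC replicate 3.

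Gucy1a3 had 7.90, 2.66, 6.72 and 18.2 FPKM in pericyte replicates 1 to 4 and 10.6, 17.0, 32.6 and 59.2 FPKM in SMC replicates 1 to 4. The groups overlapped, because pericyte replicate 4 exceeded SMC replicates 1 and 2. The mean was 8.87 ± 6.61 FPKM in pericytes and 29.8 ± 21.6 FPKM in SMCs (SD, n = 4 each). The log2 fold change of 1.61 was nearly that of Gucy1b3, with a wider error (SE 0.65, interval 0.08 to 3.14), and did not pass (limma q = 0.137). It passed under 3 of 17 alternatives, among them when only genes that reached 1 FPKM in 4 or more libraries were tested (limma q = 0.0450) and when a covariate set replicates 1 and 2 apart from 3 and 4 (limma q = 0.0358). The ratio of both subunits within a library differed between the groups by less than the spread between libraries. Gucy1a3 over Gucy1b3 was 3.98, 1.02, 2.32 and 2.97 in pericyte replicates 1 to 4 and 1.43, 1.78, 2.75 and 2.61 in SMC replicates 1 to 4, so the α subunit transcript was the more abundant per length in each library, by little in pericyte replicate 2. The log2 ratio was 1.003 ± 0.70 in pericytes and 0.99 ± 0.45 in SMCs (SD, n = 4 each; two-sided exact permutation test, p = 0.971), and the small difference of -0.01 lay between -0.34 and 0.18 when single libraries were left out. The log2 ratio of Npr1 to Gucy1b3, the membrane against the soluble source of cyclic GMP, was -0.91 ± 0.50 in pericytes and -0.37 ± 0.62 in SMCs (SD, n = 4 each), also within the spread (exact permutation test, p = 0.314).

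The stretches upstream of the cyclic GMP genes are shown with matches in capitals, from the same table and build as above. The table lists the soluble cyclase genes under the symbols Gucy1a1 and Gucy1b1. Npr1 covers chr3:90269789-90270038, Gucy1a3 covers chr3:81948996-81949245 (the second of its start sites) and Gucy1b3 covers chr3:81878634-81878883, all on the minus strand. The RBPJ core TGGGAA, read as TTCCCA on the other strand, occurs in all 3: at 208 to 203 bases before the start of Npr1, at 110 to 105, 78 to 73 and 60 to 55 bases before that of Gucy1a3, and at 65 to 60 bases before that of Gucy1b3. The GC box GGGCGG, or CCGCCC, occurs as a pair in Npr1 and once in Gucy1b3. The window before the first start site of Gucy1a3 lies largely in annotated exons (206 of 250 bases) and is not printed. It has a GC box and no TGGGAA. Of 32851 promoter windows of 250 bases in the table, 21.6% hold TGGGAA, 32.7% GGGCGG, 12.4% TATAAA and 1.47% a CArG box. A single match to TGGGAA or GGGCGG, the motifs found in these 3 stretches, is thus a common event and a description only. GC content was 70.4% for Npr1, 61.2% for Gucy1a3 and 51.2% for Gucy1b3, against a median of 52.4% over all windows.
Npr1: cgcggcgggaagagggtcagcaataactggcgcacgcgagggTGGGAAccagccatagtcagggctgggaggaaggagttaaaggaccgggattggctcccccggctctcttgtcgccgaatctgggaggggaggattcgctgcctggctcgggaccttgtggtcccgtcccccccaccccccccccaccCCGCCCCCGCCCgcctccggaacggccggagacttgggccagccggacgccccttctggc
Gucy1a3: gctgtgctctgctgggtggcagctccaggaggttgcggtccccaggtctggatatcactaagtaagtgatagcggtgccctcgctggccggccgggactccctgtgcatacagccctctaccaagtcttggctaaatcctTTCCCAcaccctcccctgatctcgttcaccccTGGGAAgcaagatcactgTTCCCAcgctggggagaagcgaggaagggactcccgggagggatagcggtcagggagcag
Gucy1b3: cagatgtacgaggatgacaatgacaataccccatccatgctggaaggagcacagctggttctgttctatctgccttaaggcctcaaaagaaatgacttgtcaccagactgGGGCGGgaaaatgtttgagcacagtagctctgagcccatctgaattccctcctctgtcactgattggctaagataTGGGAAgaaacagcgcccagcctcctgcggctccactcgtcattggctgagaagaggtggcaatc

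Downstream and beside the cyclase, 15 genes of nitric oxide synthases, other cyclase subunits, cyclic GMP kinases, their substrate and phosphodiesterases were measured. Of these, 3 were higher in SMCs and 0 in pericytes by limma (11.2% and 10.6% over all genes tested), with no unadjusted p below 0.05 in the pericyte direction and a median log2 fold change of 0.72. The count of 3 was 5 with the filter at 1 FPKM, with TPM scaling and with the covariate for replicates 1 and 2 against 3 and 4. Of the 3 called, 2 were phosphodiesterases, which break down cyclic nucleotides. Pde9a, which is specific for cyclic GMP, had 4.21, 2.34, 2.21 and 2.02 FPKM in pericyte replicates 1 to 4 and 20.7, 22.3, 24.5 and 15.1 FPKM in SMC replicates 1 to 4 (log2 fold change 2.57, SE 0.21, limma q = 0.000242). Pde1a, which is activated by calcium and calmodulin, rose from 6.67 ± 3.04 to 30.3 ± 15.0 FPKM (SD, n = 4 each; log2 fold change 2.00, limma q = 0.0109). Nos3, the endothelial nitric oxide synthase, had a log2 fold change of 2.26, larger than that of Pde1a, at 3.10 FPKM in pericytes and 25.4 FPKM in SMCs, and did not pass (limma q = 0.0549). The alternative α subunit Gucy1a2 stayed below Gucy1a3 in every library, at 0.0184 to 0.190 FPKM in pericytes and 0.338 to 1.26 FPKM in SMCs (log2 fold change 0.60, limma q = 0.0391). Pde2a, a phosphodiesterase stimulated by cyclic GMP, was the most abundant of the list at 50.6 FPKM in pericytes and 44.8 FPKM in SMCs, and did not pass (limma q = 0.674). Among the genes that carry the signal of contractile receptors, 24 were measured. There 6 were higher in SMCs and 5 in pericytes (11.2% and 10.6% over all genes tested), with a median log2 fold change of 0.49, and the pericyte count was 3 without pericyte replicate 1 or 4 or SMC replicate 1.

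Genes of that list that act just below the receptors went both ways. Plcb4, a phospholipase C, rose from 7.87 ± 4.36 FPKM in pericytes to 38.8 ± 19.8 FPKM in SMCs (SD, n = 4 each; log2 fold change 2.15, limma q = 0.0205), and Rgs4, which shortens G protein signals, from 15.4 to 62.2 FPKM (log2 fold change 1.93, limma q = 0.00709). Plcb2, a phospholipase C best known from blood cells, was at 6.36 ± 2.68 FPKM in pericytes and 0.433 ± 0.228 FPKM in SMCs (SD, n = 4 each), so it fell by 2.29 on the log2 scale (limma q = 0.00127). The exchange factor gene Arhgef1, which leukocytes express highly, was at 175 FPKM in pericytes and 37.8 FPKM in SMCs and fell by 2.22 on the log2 scale (limma q = 0.0297). Both moved with the leukocyte markers described above, and the part of leukocyte RNA in them was not tested. Gnai2, the most abundant gene of the list, did not pass at 232 and 186 FPKM (limma q = 0.783).

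Receptors for other vasoactive agents give a wider comparison. Of 37 such genes 36 were tested (Htr1b was listed at 0 throughout), and 14 were higher in SMCs and 4 in pericytes, with a median log2 fold change of 0.97. Over all genes tested the shares were 11.2% and 10.6%, so the count in pericytes is near the background. The count in SMCs was 8 without pericyte replicate 1 and 9 without pericyte replicate 2 or SMC replicate 3, and the count in pericytes was 2 without pericyte replicate 1, 3 or 4 or SMC replicate 1. Aplnr, the apelin receptor, rose from 1.80 ± 0.951 to 23.8 ± 6.19 FPKM (SD, n = 4 each; log2 fold change 3.18, limma q = 0.000417), and Vipr2, a receptor of vasoactive intestinal peptide, from 3.28 to 19.4 FPKM (log2 fold change 2.38, limma q = 0.00533). The partner proteins of the adrenomedullin receptor went in opposite directions. Ramp2 was at 27.8 FPKM in pericytes and 171 FPKM in SMCs (log2 fold change 2.67, limma q = 0.00097), whereas Ramp3 was at 160 FPKM in pericytes and 10.6 FPKM in SMCs, a fall of 3.79 on the log2 scale (limma q = 4.32e-05). Ramp2 was higher in the same group as the endothelial markers, and Ramp3 in the same group as the leukocyte markers. The part of endothelial and leukocyte RNA in these levels was not tested.

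**Figure D3:**
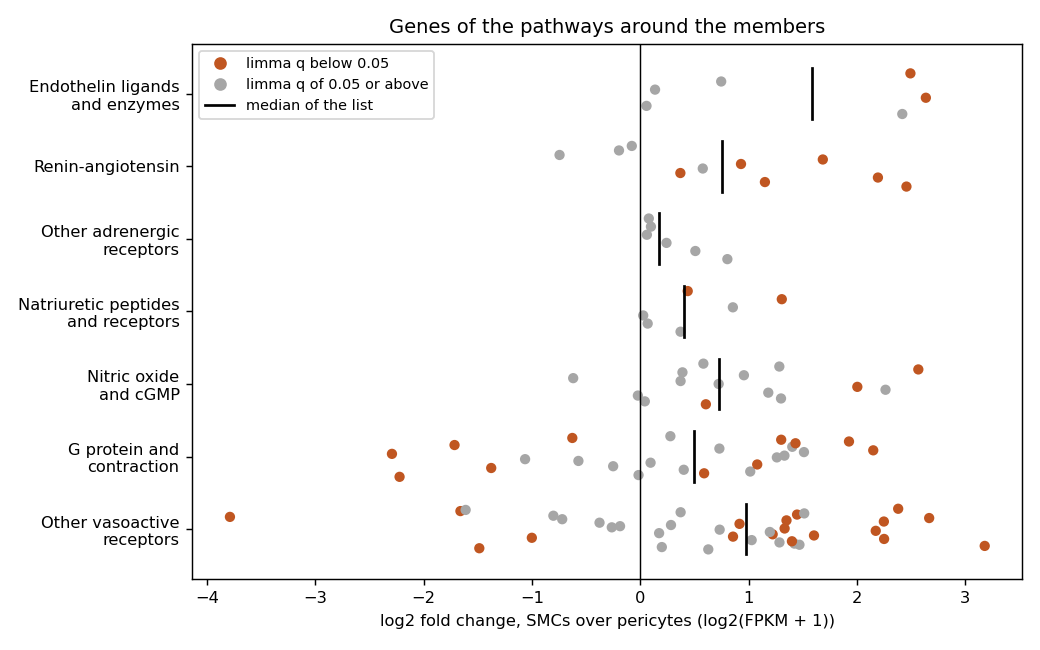
Log2 fold change, SMCs over pericytes, of each tested gene in the 7 lists around the 9 genes, with genes at a limma q value below 0.05 in orange and the median of each list as a black bar. The medians run from 0.17 for the other adrenergic receptors to 1.58 for the endothelin genes, and the genes lower in SMCs that pass lie in the lists of G protein genes and of other vasoactive receptors.

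The 9 genes formed the same broad order of level in both groups. In pericytes the order of mean FPKM was Gucy1a3, Ednrb, Ednra, Gucy1b3, Agtr1a and Npr1, followed by Adra1d, Adra2a and Adra1b. In SMCs Ednrb came before Gucy1a3, and Adra1b before Adra2a, and the rest kept their places. The single gap in which the ranges of neighbours did not overlap was between Npr1 and Adra1d, in both groups. The ranges of all other neighbours overlapped across libraries. Within a library, the order held in 4 of 4 libraries for Ednrb over Ednra and Gucy1b3 over Agtr1a in pericytes, and for Ednrb over Gucy1a3 and Ednra over Gucy1b3 in SMCs. Against all genes that averaged 1 FPKM or more in the group, Ednrb lay above 40.6% in pericytes and above 77.5% in SMCs, and Npr1 above 3.38% in pericytes and above 51.3% in SMCs.

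The libraries of a group did not agree on all genes, and the marker lists varied with them. In SMCs, replicates 3 and 4 were above replicates 1 and 2 for Ednrb, Npr1, Gucy1a3, Gucy1b3 and Adra1d, and overlapped them for Ednra and Agtr1a. The median log2(FPKM + 1) of the 10 pericyte markers was 2.55, 2.96, 3.29 and 3.92 in pericyte replicates 1 to 4 and 3.79, 3.91, 5.09 and 5.62 in SMC replicates 1 to 4. That of the 10 smooth muscle markers was 3.72, 3.86, 4.28 and 5.66 in pericytes and 4.41, 4.73, 6.46 and 7.23 in SMCs. SMC replicates 3 and 4 were thus also highest for the mural markers. Because these medians were higher by 1.42 and 1.33 in SMCs, with overlap between the groups, the 6 genes that averaged 1 FPKM or more in both groups were also taken relative to them within each library.

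**Figure D4:**
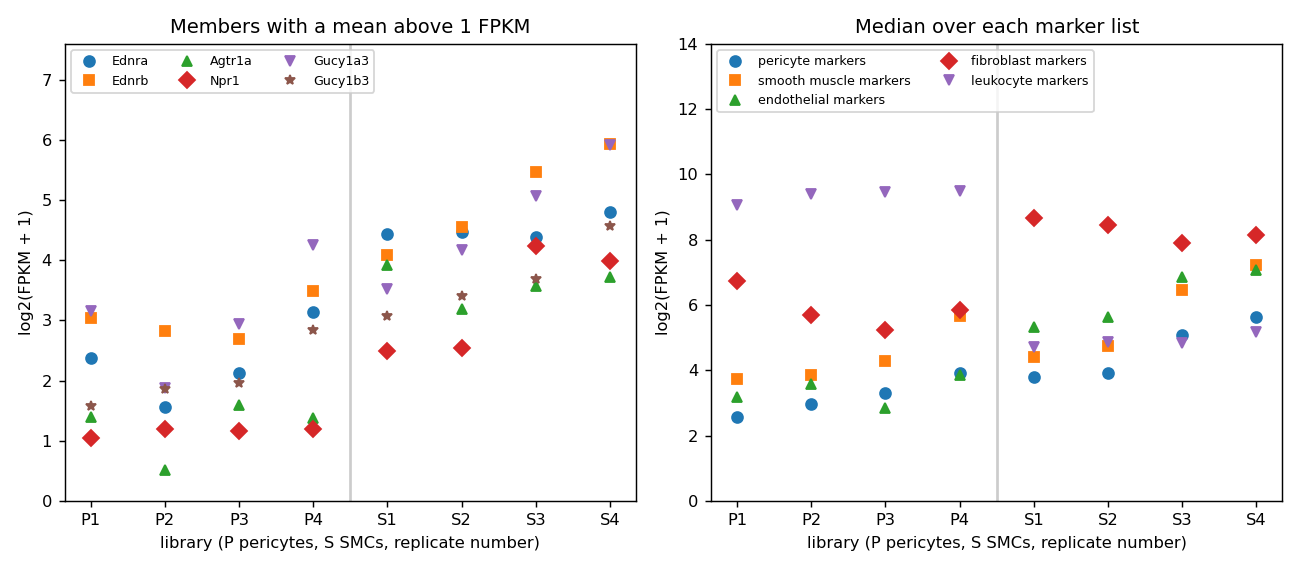
Log2(FPKM + 1) of the 6 genes with a mean above 1 FPKM (left) and the median of 5 marker lists (right) in each library, P for pericytes and S for SMCs with the replicate number. SMC replicates 3 and 4 are the highest for Ednrb and Npr1 and also for the pericyte, smooth muscle and endothelial markers, while leukocyte markers are high in all 4 pericyte libraries.

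Relative to the pericyte markers, the 6 genes stayed higher on average in SMCs, and every gene overlapped between the groups. The differences on this scale were 0.81 for Ednra (two-sided exact permutation test, p = 0.171), 0.58 for Ednrb (exact p = 0.114), 0.96 for Agtr1a (exact p = 0.143) and 0.75 for Npr1 (exact p = 0.0571). For the cyclase subunits they were 0.19 for Gucy1a3 (exact p = 0.686) and 0.20 for Gucy1b3 (exact p = 0.429). Whether these differences differ between the genes was not tested. The smallest p that 4 against 4 libraries allow is 0.0286. This test is coarser than limma, and a single gene could not pass it after adjustment over the 12 such comparisons, so it does not show that the differences in FPKM are lost relative to the markers. Relative to the smooth muscle markers the differences were 0.90, 0.67, 1.06 and 0.84 for Ednra, Ednrb, Agtr1a and Npr1 (exact p from 0.171 to 0.286) and 0.28 and 0.30 for Gucy1a3 and Gucy1b3 (exact p = 0.400 and 0.429). These comparisons were chosen after seeing the data and used the mural marker lists only. The medians of the endothelial and fibroblast lists were higher in SMCs by more, 2.84 and 2.41. Levels relative to those lists were not computed, so the direction of the differences is given for the mural lists alone. The part of the mural cell content of a library in the FPKM differences was not tested further.

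**Figure D5:**
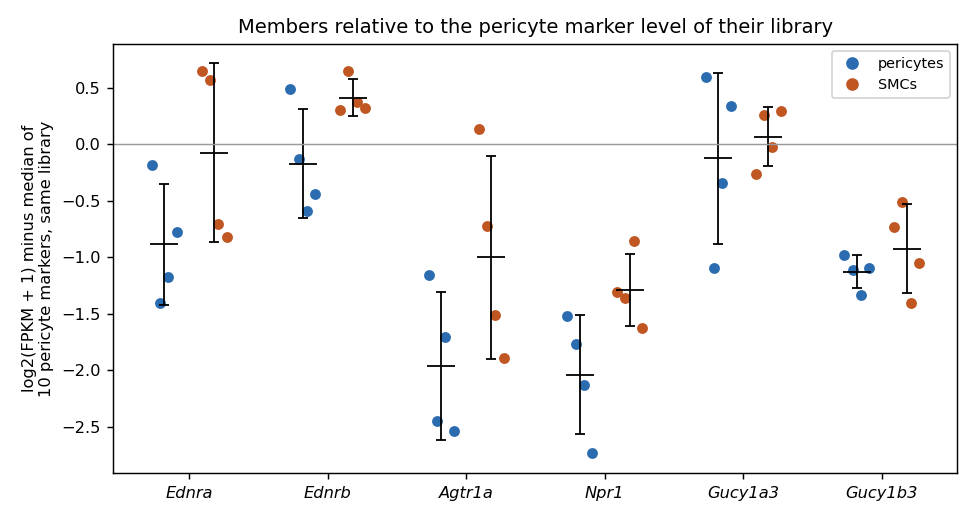
Log2(FPKM + 1) of each of 6 genes minus the median of 10 pericyte markers in the same library, in pericytes (blue) and SMCs (orange), with the mean and SD (n = 4) as bars. The groups overlap for each gene, with the widest gap between means for Agtr1a (0.96) and the narrowest for Gucy1a3 (0.19).

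The genes whose pattern over the 8 libraries was most like that of each member were found by the root mean square difference of log2(FPKM + 1) after centring each gene on its mean. This is a description over libraries that share their groups, and nothing of shared function or control is read from it. For Ednra they were Itih5 (0.155), a hyaluronan-binding matrix gene, and Fzd4 (0.186), a Wnt receptor. For Ednrb they were Fgd5 (0.151), an exchange factor known from endothelial cells, and Hspa12b (0.154). For Npr1 they were the potassium channel gene Kcnj13 (0.147) and the scavenger receptor gene Scarf1 (0.170). The nearest to Gucy1a3 were the endocytic adaptor gene Epn2 (0.181) and the sphingosine 1-phosphate receptor gene S1pr3 (0.193), and to Gucy1b3 the tropomyosin gene Tpm1 (0.161) and the metal transporter gene Slc11a1 (0.172). Agtr1a had the least close neighbours, Has2as (0.241), an antisense gene for which the handling of strand matters, and Plxdc2 (0.254). The nearest genes were Ccdc75 and Ndel1 for Adra1b, Camkk2 and Inf2 for Adra1d, and Rnf139 and Csnk1a1 for Adra2a.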

How the data were processed

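Cells were sorted and RNA was sequenced from 4 pericyte and 4 SMC libraries of mouse hindlimb muscle. The authors checked reads with FastQC, used Bowtie2 and TopHat to align them to NCBI Build 37, guided by Ensembl gene models, and deposited FPKM per gene and library, neither log transformed nor filtered. The program that computed FPKM and the handling of strand are not given in the sources used here. Gene positions came from GENCODE vM1, which holds 37195 of the 37979 identifiers, 36519 of them with the same symbol.

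Groups were taken from the sample labels. limma 3.58.1 (lmFit and eBayes, R 4.3.3) was run on log2(FPKM + 1) over the 27414 genes above 0 in at least 1 library, as 10565 genes were listed at 0 in all 8. Genes were called at a Benjamini-Hochberg q value below 0.05, with a log2 fold change above 2 given beside it. Depth was estimated from values below 0.2 FPKM in genes over 1500 bases long. Two-sided exact permutation tests were used for ratios within a library. Libraries are described as biological replicates pooled over sorts, and p-values measure the spread between them. On simulated data the fit called 187 of 200 genes (93.5%) given a change of 4 log2 units, and 10 genes given none. The rest used Python 3.11.15 (pandas 2.3.3, numpy 2.4.6, matplotlib 3.10.9, scipy 1.17.1).

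The 9 genes and all lists were chosen with earlier results of these data known. From each pathway list, the genes named were those called (at most the 4 with the largest fold change) and the most abundant. For each of the 9, the 2 genes nearest in pattern were named, among those with a mean log2(FPKM + 1) of at least 1. Some genes that this rule names are not reported here. Lnpep, Agtr1b and Nos3 were named after their values were seen. Promoter stretches were found for 7 of the 9 genes, and Agtr1a and Adra1d have no entry in the table used. Alternatives changed the pseudocount (0.1), the genes tested (those at 1 FPKM in 4 or more libraries, or every listed gene), the scaling (TPM, quantile, median-ratio), the model (replicate block, a covariate for replicates 1 and 2 against 3 and 4, intensity trend) and the libraries, each left out in turn. Levels relative to mural markers were chosen after seeing the data. Staining and cytometry were not analysed here.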

Additional observations from a re-analysis of the deposited data

Results flagged for a closer look

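Adra1b in pericytes had 1 library apart from the others. Pericyte replicate 4 was at 0.226 FPKM, beside 0.0296, 0 and 0 FPKM in replicates 1, 2 and 3, and its gap to the nearest library was 0.857 of the whole range on the log2(FPKM + 1) scale, above Dixon's critical value for 4 libraries. It was 1 of 26 groups of values checked, and chance flags about 1 in 20.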

How the results depend on the processing

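Ednra, Ednrb, Agtr1a and Npr1 were called higher in SMCs under all 17 alternatives of the fit over all genes, and Gucy1b3 under 12 of 17. Gucy1b3 was not called with all listed genes (limma q = 0.0519) or without pericyte replicate 1, 2 or 3 or SMC replicate 3 (limma q from 0.0564 to 0.0723).

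The replicate numbers shared by both groups do not pair the libraries by the criterion used, a correlation above 0.1 in every pair: the deviations from the group means correlated across genes by 0.0794 to 0.474 between libraries of the same number (mean 0.3275), and 5 of 8 libraries correlated best with their own number. With the replicate block, 3175 genes were higher in SMCs and 2978 in pericytes, against 3060 and 2917 without it. Gucy1a3 was then called (limma q = 0.0466). Gucy1b3 had a limma q value of 0.00144, below those of Ednra, Ednrb, Agtr1a and Npr1 in that fit (limma q from 0.00205 to 0.0242). With the block, 5 genes of the nitric oxide and cyclic GMP list were higher in SMCs in place of 3.

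That list also had 5 with the filter, TPM scaling and the covariate of replicates 1 and 2 against 3 and 4. The other adrenergic receptors had 1 gene higher in SMCs with a pseudocount of 0.1, TPM scaling, quantile scaling or an intensity trend. The natriuretic list had 1 with the filter or all listed genes. With all listed genes the other vasoactive receptors had 9 higher in SMCs. With all listed genes or TPM scaling, 3 G protein genes and 2 other vasoactive receptors were higher in pericytes. A pseudocount of 0.1 raised the genes higher in SMCs by a log2 fold change above 2 from 728 to 1421 and those higher in pericytes from 888 to 1328, and turned the log2 ratio of Adra1b to Adra1d from -0.17 to 0.076. TPM scaling gave 1019 and 822 such genes. The cause of these changes was not tested.

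With each library left out in turn, the counts higher in SMCs ran from 1 to 2 for the natriuretic list and from 8 to 14 for the other vasoactive receptors. The counts higher in pericytes ran from 0 to 1 for the renin-angiotensin list, from 3 to 6 for the G protein list and from 2 to 5 for the other vasoactive receptors. The difference in log2 ratio ran from -0.051 to 0.44 for Ednra to Ednrb and from -0.34 to 0.18 for Gucy1a3 to Gucy1b3. Depth limits Adra2a, which rests on an estimated 2 to 20 fragments per library. Fragments were not estimated for Adra1b and Adra1d.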
